A study of Mus musculus with 185 samples.

Results

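The genes described here code for proteins of the surface of lipid droplets and for enzymes that release fatty acids from stored or circulating triglyceride. They are 10 of the 57010 genes of the count matrix: Plin2, Plin3, Plin4, Plin5, Pnpla2, Pnpla7, Angptl4, Lpl, Lipe and Mgll. The list was chosen by name with earlier diet comparisons of these same libraries in view. Levels and fold changes of the 10 genes are therefore a description of these mice, and their adjusted p-values, printed for a few of them, are the output of a fit over all genes and no independent evidence.

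The data are bulk RNA-seq of brain pieces from male C57BL/6 J mice aged 8 weeks at purchase, none of which carried a transgene or mutation. In the 16 h study 18 mice were housed in pairs, with 6 mice on chow, 6 on a high-fat diet (HFD) and 6 fasted. Diet was assigned by cage in that study, with 3 cages per diet. In the 24 h study 19 mice were housed singly, with 9 on chow and 10 fasted. Each mouse gave 5 libraries from 5 regions: hypothalamus, hippocampus, superior colliculus and inferior colliculus in both studies, with prefrontal or frontal cortex as the fifth region at 16 h and zona incerta at 24 h. The matrix heading of a library gave its mouse but not its region, so the 5 columns of a mouse were added up for every comparison, and the mouse was the replicate. Values are CPM, the counts of a gene per 1000000 counts of the mouse, unless a column is named. A mouse had between 57962237 and 161577364 counts, and single columns had between 2994 and 65973281. The sums include a block of libraries of the 24 h study in which no RNA was detected and which its authors discarded.

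Before the values are given, 2 mice of the 24 h study need naming. The study's methods state that the superior colliculus samples of 2 mice, numbered 1423 (chow) and 1454 (fasted) in the labels, were exchanged during handling. They add that the metadata of both samples were corrected for this. Whether the headings of the matrix follow that correction was not stated. In the matrix, 1 of the 5 columns under chow mouse 1423 had 62.1 CPM of Plin4, while its other 4 columns had 1.29 to 13.6 CPM. Of the columns under fasted mouse 1454, 1 had 7.16 CPM of Plin4 and the others had 43.7 to 99.7 CPM. For the 10 genes, the log2 differences between the diets at 24 h are given with and without these mice, and for the gene lists the counts. Mitochondrial genes took 3.78% to 4.98% of the counts of a mouse at 16 h and 8.57% to 16.7% at 24 h. The studies also differed in housing, sequencing run, choice of hemisphere, the clock hour at which the fast began and 1 region. Levels were therefore compared between diets within a study.

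Neutral lipid is stored in droplets that are coated by perilipins, which control the access of lipases to the core. Adipose triglyceride lipase, the product of Pnpla2, cleaves the first fatty acid from triglyceride. Hormone-sensitive lipase (Lipe) acts on the diglyceride and monoglyceride lipase (Mgll) on the last step, and in brain Mgll is best known for degrading the endocannabinoid 2-arachidonoylglycerol. Lipoprotein lipase (Lpl) works outside the cell on circulating lipoproteins, and ANGPTL4 inhibits it. Droplets in brain are found mainly in glia and ependymal cells. Fasting raises several of these genes in liver, muscle and fat, where peroxisome proliferator-activated receptors (PPARs), glucocorticoids and FoxO factors act on them.

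In the GRCm39 genome Plin3, Plin4 and Plin5 lie on chromosome 17, all on the minus strand. Plin4 runs from 56406617 to 56416931, Plin5 from 56418446 to 56424610 and Plin3 from 56584218 to 56599873. Angptl4 is on the same chromosome, from 33992724 to 34000804. Pnpla2 lies on chromosome 7 from 141034404 to 141040656, and Pnpla7 on chromosome 2 from 24865944 to 24944083. Exons of Plin4 share 3124 of their 7987 bases with exons of Hdgfl2 on the opposite strand, and for Pnpla2 867 of 3936 exonic bases are shared with an opposite-strand gene model. The strand setting of the counts was not given in the sources used here, so how reads from such stretches were assigned is not known. Hdgfl2 itself differed between fasted and chow mice at 24 h by 0.30 ± 0.040 on the log2 scale (SE, edgeR adjusted p = 3.26e-05). Its median was 53.94 CPM in chow and 61.85 CPM in fasted mice.

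The stretches just before the starts of the genes that rose in fasting are shown because these genes moved together and such windows are where the motifs of fasting-related factors are usually sought. The RefSeq promoter table (build GRCm38.p6) held 8 of the 10 genes and 3 of the 4 that rose by most, with Angptl4 not among them. Each window is the 250 bases before the annotated start, printed 5′ to 3′ on the strand of the gene, and capitals mark a motif match. The Plin4 window is on the minus strand of chr17:56109783-56110032, that of Pnpla2 on the plus strand of chr7:141454938-141455187 and that of Pnpla7 on the plus strand of chr2:24975783-24976032.
Plin4: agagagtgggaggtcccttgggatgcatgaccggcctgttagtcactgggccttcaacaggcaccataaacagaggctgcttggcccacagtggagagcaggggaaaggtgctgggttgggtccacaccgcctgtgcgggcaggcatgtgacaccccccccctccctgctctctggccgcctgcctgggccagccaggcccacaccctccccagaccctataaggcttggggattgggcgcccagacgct
Pnpla2: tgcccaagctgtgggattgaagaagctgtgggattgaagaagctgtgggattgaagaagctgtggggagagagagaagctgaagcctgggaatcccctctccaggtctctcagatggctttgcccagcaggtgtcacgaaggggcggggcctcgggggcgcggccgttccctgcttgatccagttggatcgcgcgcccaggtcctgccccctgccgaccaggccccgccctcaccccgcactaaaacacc
Pnpla7: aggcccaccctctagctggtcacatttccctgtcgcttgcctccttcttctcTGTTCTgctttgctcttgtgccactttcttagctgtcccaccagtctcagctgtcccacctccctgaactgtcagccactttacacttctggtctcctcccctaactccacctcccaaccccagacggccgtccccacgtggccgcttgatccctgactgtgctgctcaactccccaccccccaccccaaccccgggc

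Both strands were searched for the forkhead sequence GTAAACA, the nuclear receptor half-site AGGTCA and the glucocorticoid receptor half-site AGAACA. The direct repeat AGGTCANAGGTCA, which contains the nuclear receptor half-site and is bound by PPARs, was searched as well. Only these spellings were searched, so variants of a motif were not counted. The only match was a glucocorticoid receptor half-site before Pnpla7, on the minus strand, from base -198 to -193 relative to the start. That motif occurred in 16.1% of the 32851 windows of the table. The share was 3.17% for the forkhead sequence, 14.0% for the nuclear receptor half-site and 0.0335% for the direct repeat. The windows were rich in G and C, with 65.2% for Plin4, 63.2% for Pnpla2 and 60.4% for Pnpla7 beside a median of 52.4% over all windows. A match is a match of letters and no more, and its absence says nothing of sites elsewhere.

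Fasting for 24 h was accompanied by higher levels of 4 of the 10 genes, and these 4 stood apart from chow mouse by mouse. Plin4, whose product coats droplets in fat cells, muscle and some other tissues, was 9.62-fold higher. Pnpla2 was 3.57-fold higher, Angptl4 3.22-fold and Pnpla7, which codes for a lysophospholipase, 1.77-fold. Lipe was 1.12-fold higher, a difference that passed the threshold narrowly, and the remaining perilipins and lipases did not pass it. Of the 10 genes, 5 were called higher and none lower by edgeR's quasi-likelihood test at a Benjamini-Hochberg adjusted p under 0.05. Over all 29011 genes tested 11.3% were called, and 5.74% were called as higher. Without mice 1423 and 1454 the same fit called 4 of the 10 genes, against 9.59% of all genes.

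Plin4 ranged from 5.91 to 26.0 CPM in the 9 chow mice, with a median of 8.22, and from 63.8 to 126.9 CPM in the 10 fasted mice, with a median of 98.7. The fasted mice were all above the chow mice, and the highest chow value belonged to mouse 1423. Without mice 1423 and 1454 the chow range was 5.91 to 10.0 CPM and the fasted range 68.1 to 126.9 CPM. The difference was 3.27 ± 0.24 on the log2 scale (SE).

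Pnpla2 had between 16.4 and 27.0 CPM in chow mice (median 18.1) and between 40.2 and 98.4 CPM in fasted mice (median 62.8). The groups did not overlap, and again mouse 1423 was the highest of the chow mice. The other 8 chow mice lay between 16.4 and 19.3 CPM, a narrow range beside the spread of the fasted mice. The difference was 1.84 ± 0.17 on the log2 scale.

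Angptl4, the lipoprotein lipase inhibitor, was among the lowest of the 10 genes in chow mice, at 1.30 to 4.29 CPM with a median of 2.204. Fasted mice had 5.49 to 9.27 CPM with a median of 6.68, so the diets did not overlap, and without mouse 1423 no chow mouse was above 2.61 CPM. The difference was 1.69 ± 0.18 on the log2 scale, and the lowest count behind a value was 97 in chow and 363 in fasted mice.

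Pnpla7 showed the smallest change of the 4 and the tightest groups. Chow mice had 16.1 to 21.1 CPM with a median of 18.9, and fasted mice 26.8 to 35.4 CPM with a median of 31.4. The groups did not overlap, and the difference was 0.82 ± 0.055 on the log2 scale. Exons of Pnpla7 share only 13 bases with the opposite-strand gene Mrpl41. For 4 of the 10 genes the CPM of the diets did not overlap, beside 1.3% of all genes tested.

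**Figure D1:**
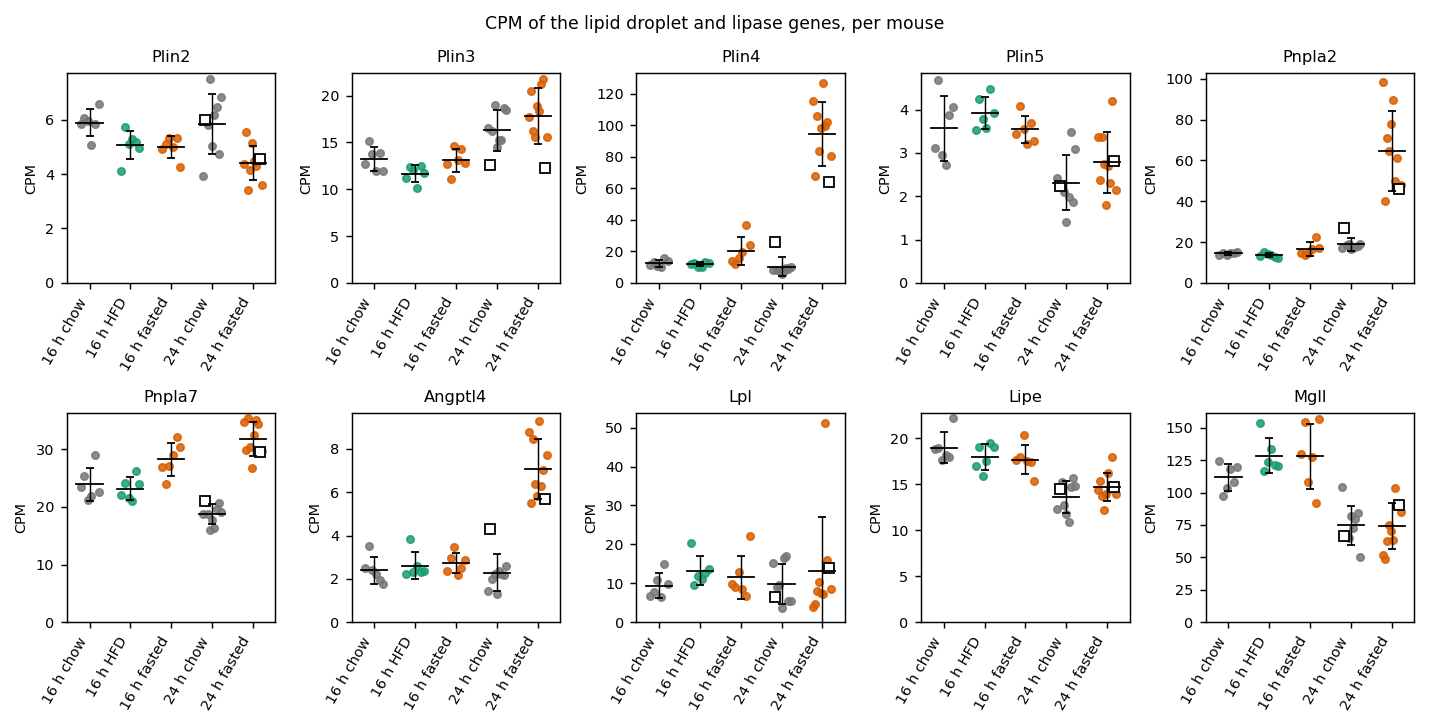
CPM per mouse (y axis, linear from 0) of the 10 genes in the 5 groups (x axis), with the group mean and SD as black lines and bars; grey is chow, green HFD and orange fasted, and open squares are mice 1423 and 1454. Plin4, Pnpla2, Pnpla7 and Angptl4 of the fasted mice at 24 h sit above every chow mouse of that study, while the other 6 genes overlap between the diets.

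The perilipins other than Plin4 did not follow it. Plin2, the perilipin of most non-fat cells, ranged from 3.919 to 7.501 CPM in chow mice (median 5.99) and from 3.40 to 5.55 CPM in fasted mice (median 4.41). All 10 fasted mice were below the chow median, but 8 were still within the chow range. The difference was -0.35 ± 0.11 on the log2 scale, just outside the threshold (edgeR adjusted p = 0.0538). It passed in 7 of 27 alternative settings, among them those without mouse 1422, 1451, 1425 or 1435. Values ran from -0.44 to -0.29 over the 27 settings. Without the pair of mice whose samples were exchanged the difference was -0.34 and did not pass (edgeR adjusted p = 0.106).

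Plin3, a perilipin that moves between cytosol and young droplets, had a median of 16.2 CPM in chow and 18.0 CPM in fasted mice, with a log2 difference of 0.18 ± 0.097. Plin5, which ties droplets to mitochondria, had 1.40 to 3.49 CPM in chow and 1.80 to 4.19 CPM in fasted mice, with a difference of 0.33 ± 0.15. Neither passed the threshold. Without the pair of mice whose samples were exchanged the differences were 0.19 for Plin3 and 0.33 for Plin5, and again neither passed. Plin5 lies next to Plin4 on chromosome 17, and the groups of Plin5 overlapped where those of Plin4 did not.

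Of the remaining lipases Lipe was just inside the threshold (edgeR adjusted p = 0.0451), with a log2 difference of 0.17 ± 0.053. Its median was 14.5 CPM in chow and 14.4 CPM in fasted mice, so the medians of the unadjusted CPM did not differ in the direction of the fit. The call was lost in 21 of 27 alternative settings, 14 of which left out 1 mouse (chow mice 1422, 1432, 1441, 1442, 1443 and 1452, fasted mice 1424, 1425, 1433, 1435, 1444, 1453, 1454 and 1455), and the adjusted p ran from 0.0169 to 0.435. The value without mice 1423 and 1454 was 0.18 (edgeR adjusted p = 0.0504). Without the scaling step alone the difference was 0.11 (edgeR adjusted p = 0.435). Lipe exons share 1326 of 5958 bases with the opposite-strand gene 4732471J01Rik.

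Mgll had 50.6 to 104.6 CPM in chow mice and 49.0 to 103.6 CPM in fasted mice, with medians of 72.5 and 72.6. The ranges coincided almost completely, and the log2 difference was 0.028 ± 0.14.

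Lpl ranged from 3.61 to 17.1 CPM in chow and from 3.99 to 51.3 CPM in fasted mice, with medians of 9.06 and 8.19. The highest value came from mouse 1445 and stood alone, since no other fasted mouse was above 16.0 CPM. The log2 difference was 0.45 ± 0.43, and without mouse 1445 it was -0.10. Without the pair of mice whose samples were exchanged it was 0.38. Lpl therefore had no stable direction at 24 h.

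**Figure D2:**
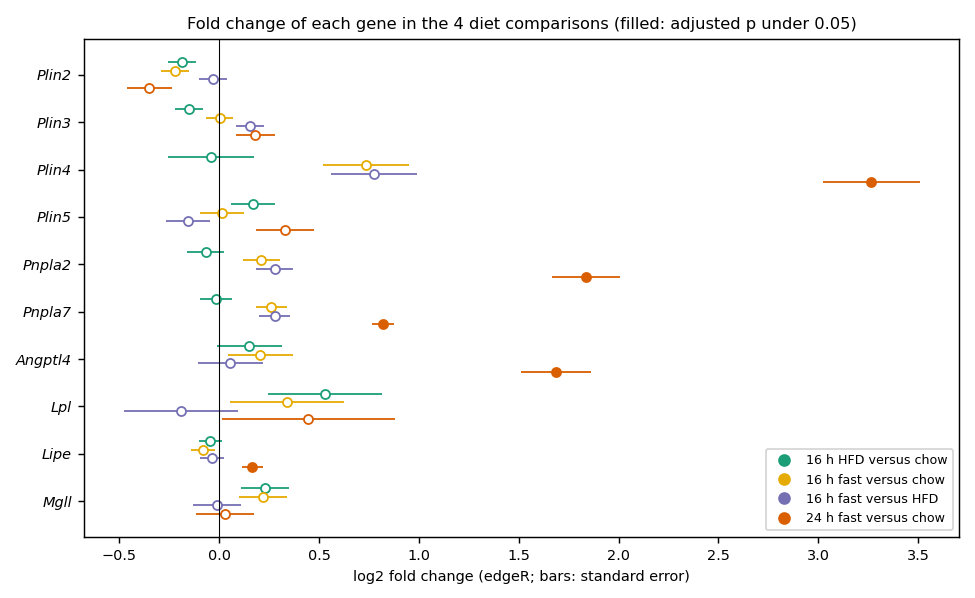
Log2 fold change (x axis) of the 10 genes (y axis) in the 4 diet comparisons, from edgeR, with bars for the standard error; filled points have an adjusted p under 0.05. Plin4 (3.27), Pnpla2 (1.84) and Angptl4 (1.69) at 24 h lie well to the right of all other points, Pnpla7 at 24 h (0.82) lies close to the unfilled 16 h points of Plin4 (0.73 and 0.77), and Lipe is the fifth filled point at 0.17.

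The columns of single libraries showed whether the rise was carried by a part of the brain pieces. Shallow columns (under 1000000 counts) and columns of low complexity (fewer than 16000 genes at an equal depth of 500000 counts) were dropped here, which left 72 of 95 columns at 24 h. Leaving out mice 1423 and 1454 as well, 34 fasted and 30 chow columns remained. For Plin4 all 34 fasted columns, at 34.5 to 245.3 CPM, were above the highest chow column of 16.4 CPM. For Pnpla2 33 of 34 fasted columns were above every chow column, for Angptl4 32 of 34 and for Pnpla7 31 of 34. The columns of a mouse are different regions and share an animal, so these counts describe breadth and are not a test.

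The column that stood apart in Plin4 was the highest of mouse 1423 in all 4 genes, and that of mouse 1454 was the lowest. In mouse 1454 other columns also lay within the range of the chow columns, at 23.7 CPM of Pnpla7 and 3.42 CPM of Angptl4. The odd column of chow mouse 1423 had 62.1 CPM of Plin4, 43.7 of Pnpla2, 30.5 of Pnpla7 and 8.13 of Angptl4. The odd column of fasted mouse 1454 had 7.16, 13.9, 20.3 and 1.51 CPM of the same genes. The first lay within the range of the other fasted columns in each gene, and the second within the range of the chow columns. Mean differences over all mice were therefore smaller than those without the pair. Without them the log2 differences were 3.63 for Plin4, 1.97 for Pnpla2, 1.89 for Angptl4 and 0.86 for Pnpla7.

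**Figure D3:**
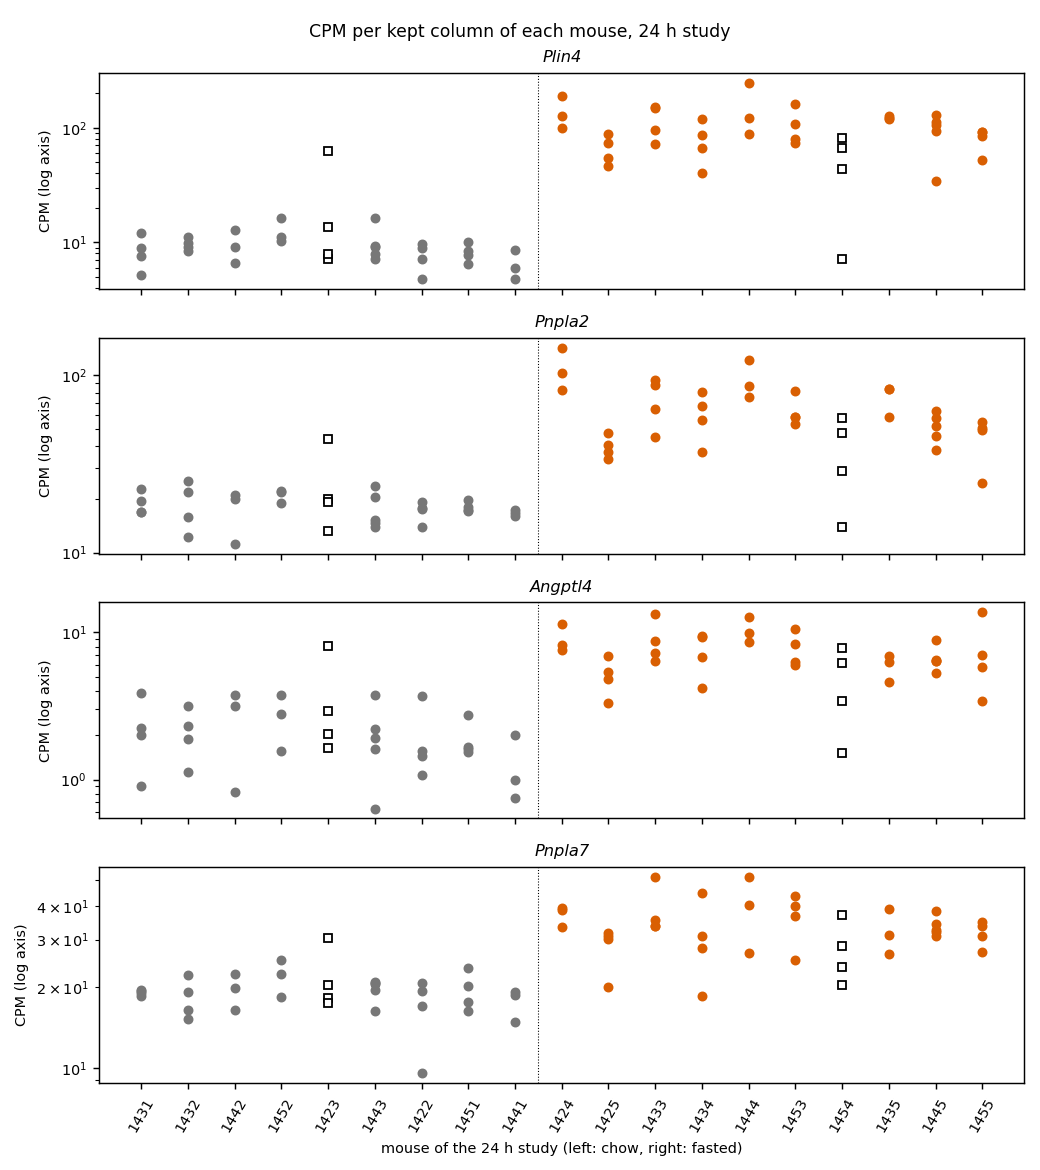
CPM per column (y axis, log scale) of Plin4, Pnpla2, Angptl4 and Pnpla7 for each mouse of the 24 h study (x axis, chow to the left of the dotted line and fasted to the right), kept columns only; open squares are mice 1423 and 1454. Outside those 2 mice the fasted columns of Plin4, at 34.5 to 245.3 CPM, lie above all chow columns, at 4.77 to 16.4 CPM.

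The genes also differed in how evenly they were spread over the columns of a mouse. The ratio of the highest to the lowest kept column of a mouse had a median over 37 mice of 1.52 for Lipe and Pnpla7, 1.73 for Pnpla2, 1.92 for Plin3 and 2.02 for Plin4. It was 2.23 for Plin5, 2.39 for Plin2, 3.07 for Angptl4, 4.29 for Mgll and 12.0 for Lpl. Lpl and Mgll were high in overlapping sets of columns, since in 35 of 37 mice the column highest in Lpl was among the 2 highest in Mgll. Which regions these columns are was not determined. With equal weight per column, in a limma fit of mean log2 CPM over kept columns, the 24 h differences were -0.10 for Lpl and -0.14 for Mgll, and what made them differ from the summed values was not tested.

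Per kilobase of exon, the order of the genes in chow mice of the 24 h study was led by Mgll with a median of 11.7 CPM per kb. The exons of all annotated transcripts of a gene were merged for this length, so the order depends on which transcripts are annotated. After Mgll came Pnpla2 with 4.59, Lipe with 2.43, Plin3 with 2.22, Pnpla7 with 1.69 and Plin4 with 1.03. Plin2, Lpl and Plin5 followed at 0.779, 0.741 and 0.717 CPM per kb, and Angptl4 was lowest with 0.490. Mgll and Pnpla2 stood clear of the genes below them, while from Lipe downwards the range over mice of every gene overlapped that of its neighbour. In fasted mice Pnpla2 led with 16.0 CPM per kb, Plin4 followed with 12.4 and Mgll stayed at 11.7, with overlapping ranges, and all others were at or below 2.81. The median of Plin4 was sixth in chow and second in fasted mice, and neither place was clear of its neighbours.

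At 16 h none of the 10 genes was called in any of the 3 comparisons by edgeR. Of the 29746 genes tested, edgeR called 0% for fasted against chow, where DESeq2 called 19 genes and 2230 had an unadjusted edgeR p under 0.05. The share for HFD against chow was also 0%, where DESeq2 called 5 genes and 2856 had an unadjusted edgeR p under 0.05. Fasted against HFD had 0.222% called, and DESeq2 called 1.18%, among which Plin4 was the only member of the list. The fasted mice are shared between the comparisons with chow and HFD, so their differences are not separate evidence.

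Plin4 ranged from 9.82 to 15.9 CPM in chow mice (median 12.2), from 10.1 to 13.3 CPM on HFD (median 12.2) and from 12.0 to 36.6 CPM in fasted mice (median 17.8). Of the 6 fasted mice 4 were above every chow mouse and 5 above every HFD mouse. The log2 difference was 0.73 ± 0.22 to chow (edgeR adjusted p = 0.584) and 0.77 ± 0.22 to HFD (edgeR adjusted p = 0.157). DESeq2 gave 0.78 to HFD with an adjusted p of 0.0232. Over all alternatives the adjusted p ran from 0.0232 to 0.553, the latter from edgeR with cage sums. HFD and chow differed by -0.041 ± 0.22.

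The highest 2 fasted values came from mice 11 and 12, which shared cage 39 and had 36.6 and 24.1 CPM. Their body weight changed by -7.52% and -6.49%, while the other 4 fasted mice changed by -2.51% to -1.30% and had 12.0 to 19.5 CPM. Pnpla2 in mice 11 and 12 was 22.7 and 16.9 CPM against 13.7 to 16.8 CPM in the other fasted mice, and Pnpla7 was 32.2 and 30.5 against 24.0 to 29.1 CPM. Angptl4 in cage 39, at 2.49 and 2.89 CPM, was inside the range of 2.16 to 3.47 CPM of the others. Cage 39 was also the fasted cage of the third and last round of cages, killed latest of the fasted cages after a fast that started later by the same interval. Of the chow mice, mouse 5 of the third round had the highest Plin4 (15.9 CPM) and Pnpla7 (29.0 CPM). Cage, round, clock hour and weight loss cannot be told apart in these 2 mice. With the round as a term in the fit the Plin4 difference was 0.68 to chow and 0.71 to HFD. Without mouse 11 the Plin4 difference to chow was 0.49 and to HFD 0.53.

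**Figure D4:**
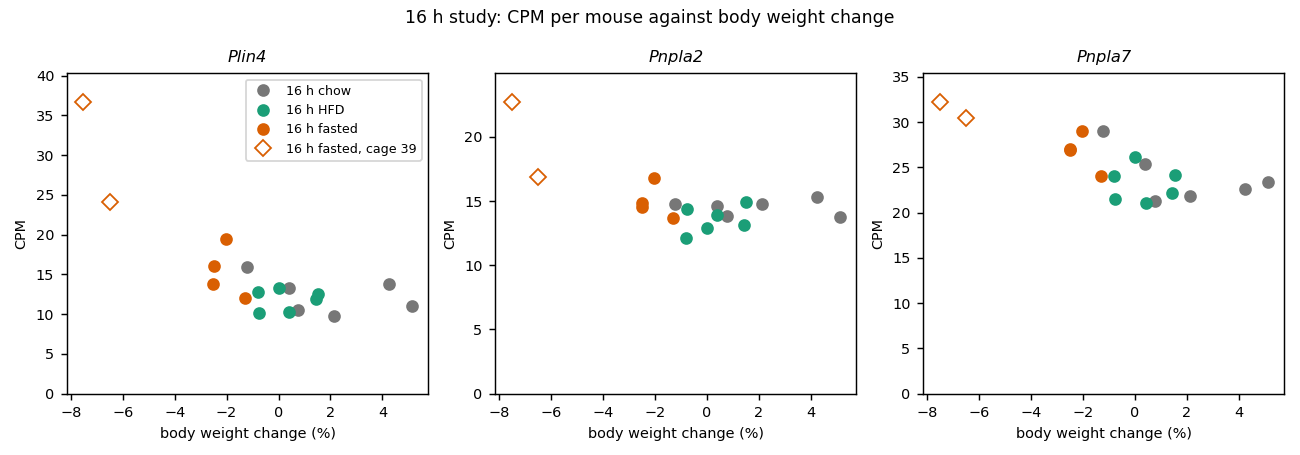
CPM per mouse (y axis, from 0) of Plin4, Pnpla2 and Pnpla7 against body weight change over the experiment (x axis, percent) in the 16 h study; grey is chow, green HFD, orange fasted, and open diamonds are the 2 fasted mice of cage 39. The diamonds, at weight changes of -7.52% and -6.49%, have the highest values in all 3 panels, 36.6 and 24.1 CPM for Plin4.

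Weight loss separated the 2 fasts. The body weight of fasted mice in the 24 h study changed by -21.4% to -17.1%, while the chow mice of that study changed by between -0.386% and 3.46%. The 4 genes that rose at 24 h had log2 differences to chow at 16 h of 0.73 for Plin4, 0.26 ± 0.078 for Pnpla7, 0.21 ± 0.092 for Pnpla2 and 0.21 ± 0.16 for Angptl4, all positive and none called. For Pnpla7 the 6 fasted mice at 16 h were all above the chow median.

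Plin2 in the 16 h study had lower values in HFD and fasted mice than in chow mice. Chow mice had 5.07 to 6.59 CPM, HFD mice 4.13 to 5.71 and fasted mice 4.26 to 5.33, and all 12 mice of the 2 other groups were below the chow median of 5.90. The log2 differences were -0.19 ± 0.070 for HFD and -0.22 ± 0.070 for fasting, and neither passed the threshold. HFD and fasting share the chow mice in these 2 values.

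The other members stayed within overlapping ranges at 16 h. Lpl had medians of 8.73 CPM in chow, 12.3 on HFD and 9.46 in fasted mice, with a log2 difference of 0.53 ± 0.28 between HFD and chow. Mgll had medians of 113.2, 122.7 and 128.5 CPM in the same order, with differences of 0.23 ± 0.12 for HFD and 0.22 ± 0.12 for fasting. Plin3 differed by -0.15 ± 0.068 on HFD, Plin5 by 0.17 ± 0.11 and Lipe by -0.045 ± 0.059. None of these passed the threshold.

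The difference between the fasting effects of the studies was fitted over the 31 chow and fasted mice as 1 contrast. It was 2.52 ± 0.36 for Plin4, 1.62 ± 0.23 for Pnpla2, 1.47 ± 0.26 for Angptl4 and 0.55 ± 0.098 for Pnpla7, each with a larger rise at 24 h. These 4 were called (edgeR adjusted p from 0.000159 to 0.00173) and the other 6 were not. Without mice 1423 and 1454 the differences were 2.88 for Plin4, 1.75 for Pnpla2, 1.67 for Angptl4 and 0.59 for Pnpla7. Of all 30664 genes 1.25% were called and 0.652% with a larger value at 24 h. Duration, housing, sequencing run, choice of hemisphere, the clock hour at which the fast began and 1 region changed together between the studies and cannot be told apart.

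Markers of other cells were read beside these values. Summed adipocyte markers were between 1.54 and 3.31 CPM in all 37 mice, with 5 of 8 markers at a median under 0.1 CPM, Adipoq included. The sum had medians of 2.10 CPM in chow and 1.86 CPM in fasted mice at 24 h, where Plin4 rose. Fabp4, at 0.0134 to 0.103 CPM in chow and 0.0771 to 0.276 CPM in fasted mice, was the only adipocyte marker called as higher. Summed neuronal markers overlapped between fasted (3547 to 4538 CPM) and chow mice (3587 to 4390 CPM).

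Several vascular and microglial markers were called lower in fasted mice. At 24 h 4 of 8 endothelial markers fell, with 3 of 7 pericyte and smooth muscle markers, 4 of 6 fibroblast and meningeal markers and 3 of 6 microglial markers, and none of these lists had a marker that rose. Of all 29011 genes tested 1627 were called as lower. The summed endothelial markers overlapped between chow (225.4 to 359.9 CPM) and fasted mice (174.7 to 281.5 CPM). The sums of the pericyte, fibroblast and microglial lists also overlapped between the diets. The astrocyte markers Gja1 and Aqp4 fell and the oligodendrocyte marker Mobp rose. Without mice 1423 and 1454 the counts that fell were 3 endothelial, 3 pericyte and smooth muscle, 3 fibroblast and meningeal and 3 microglial markers, and of the astrocyte markers Aqp4 alone. In that fit 1338 of 28824 genes tested were called as lower. The part of these shifts in the 4 genes was not tested. In bulk tissue, fewer cells of a type and less RNA per cell cannot be told apart. Summed choroid plexus markers ran from 18.5 to 4154 CPM over the mice, with ranges of 24.1 to 1777 in chow and 31.3 to 4154 in fasted mice at 24 h, and none of the 6 was called. No neuronal, blood or ependymal marker was called at 24 h, and at 16 h the endothelial transporter Slco1a4, higher in fasted than in HFD mice, was the only marker called.

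Of 17 further droplet proteins 16 were found by symbol and 13 could be tested. Of these 1 rose, 1 fell and 11 were not called at 24 h. Over all 29011 genes tested 1665 (5.74%) were called as higher and 1627 as lower. Hsd17b11, a droplet-associated steroid dehydrogenase, rose by 0.20 ± 0.054 on the log2 scale, and Ldah, a droplet-associated hydrolase, differed by -0.23 ± 0.063. The median over the 13 genes was -0.086, beside -0.0044 over all genes. The co-activator of the Pnpla2 product, Abhd5, differed by -0.16 ± 0.077 and its inhibitor G0s2 by -0.11 ± 0.088, and neither was called. Both were named after their values were seen.

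Among 20 tested genes of triglyceride synthesis 2 rose and none fell, with a list median of 0.027, beside 5.74% of all genes called as higher. Dgat2, which adds the last fatty acid, had 20.2 to 39.7 CPM in chow and 23.9 to 79.4 CPM in fasted mice, a difference of 0.74 ± 0.19. Lpin3, a phosphatidate phosphatase, differed by 0.58 ± 0.13. Of 20 other lipid hydrolases none rose and 1 fell, beside 1627 of all 29011 genes called as lower. It was the phospholipase Ddhd1 at -0.19 ± 0.053, and the list median was 0.049.

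Lipoprotein lipase handling and lipoprotein uptake, with 17 tested genes, had 1 that rose and 1 that fell, and a list median of -0.030. They were Furin, a protease that cleaves lipoprotein lipase and its inhibitors, at 0.19 ± 0.058 and its relative Pcsk6 at -0.33 ± 0.090. Over all 29011 genes tested 1665 (5.74%) were called as higher and 1627 as lower.

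Of 25 PPAR factors and fatty acid oxidation targets 7 rose and 2 fell, with a list median of 0.15. Over all 29011 genes tested 1665 (5.74%) were called as higher and 1627 as lower. Pdk4 is also a member of the glucocorticoid list below, so the 2 lists are not separate. Pdk4, which blocks the entry of pyruvate into mitochondrial oxidation, rose by 1.56 ± 0.17, from 6.13 to 9.67 CPM in chow to 13.5 to 33.6 CPM in fasted mice. Ucp2, a mitochondrial carrier, rose by 0.93 ± 0.15. The fatty acid binding proteins Fabp7 and Fabp5 fell, by 0.95 and 0.38 on the log2 scale. Fabp7 is made by astrocytes and radial glia.

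The largest median of the 6 lists was that of 14 genes known to be induced by glucocorticoids, all of which rose at 24 h, with a median of 1.44. Of all genes tested 5.74% were called as higher. They included the cell cycle inhibitor Cdkn1a at 3.71 ± 0.36, the kinase Sgk1 at 2.36 ± 0.15 and the sulfotransferase Sult1a1 at 1.87 ± 0.18. These lists were drawn up with results of these libraries known, so their counts are no independent evidence of direction. At 16 h none of the genes of the 6 lists was called in any of the 3 comparisons, and the glucocorticoid list had a median of 0.21 for fasting against chow. Without mice 1423 and 1454 the counts of called genes at 24 h were the same in 5 of the 6 lists, and in the list of lipoprotein lipase handling Pcsk6 was lost (-0.28 ± 0.093, edgeR adjusted p = 0.0685). Cdkn1a was then 4.24 ± 0.24, Sgk1 2.53 ± 0.11 and Sult1a1 2.05 ± 0.16, with a list median of 1.54.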

How the data were processed

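The data are RNA-seq read counts per gene of the GRCm39 genome. The authors prepared rRNA-depleted libraries, demultiplexed with bcl2fastq 2.20.0, and aligned and counted with STAR 2.7.3a, per the labels and the methods. The annotation release and the strand column were not given in the sources used here. The deposited counts are raw whole numbers in 185 columns under 37 headings, which name the mouse but not the region, so the 5 columns of a mouse were added up. The labels mark 29 libraries as failing alignment and 12 as failing principal component analysis, and these marks could not be tied to columns. Of the columns 27 were shallow or poor in genes and were left out in an alternative.

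Counts were tested with edgeR 4.0.16 (filterByExpr, TMM, robust quasi-likelihood fit) in R 4.3.3, in 1 fit per study over all genes with Benjamini-Hochberg adjustment and a threshold of 0.05. The difference of the fasting effects used 1 fit of 4 groups. DESeq2 1.42.0 and limma 3.58.1 (mean log2 CPM of the columns, prior count 2) served as alternatives. The scripts were tested on simulated data. Each p-value measures the spread between mice. The pairs of mice in a cage of the 16 h study were treated as separate, although diet was assigned by cage. In an alternative they were summed.

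The genes, lists and tests were chosen with earlier results of these data known. From each of 6 lists up to 3 genes that rose and 3 that fell most at 24 h were named, if their mean log2 CPM was 0 or above, and any gene called at 16 h. 1 gene that this rule picked is not reported here. Gene positions and exon lengths are those of GENCODE vM39, with the exons of all transcripts of a gene merged, and promoter windows come from RefSeq (GRCm38.p6). Other alternatives left out the TMM scaling, the filter, single mice, or mice 1423, 1454 and 1455, or added the round of cages or the clock hour.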

Additional observations from a re-analysis of the deposited data

Results flagged for a closer look

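In 50 sets of values (10 genes in 5 groups) 7 had a sample that stood farther from its neighbours than Dixon's 95% value allows, where chance gives about 1 in 20. Chow mouse 1423 of the 24 h study was far above the other 8 chow mice in Plin4 (26.0 CPM), Pnpla2 (27.0 CPM) and Angptl4 (4.29 CPM), and it is 1 of the mice whose samples were exchanged. Fasted mouse 1445 stood apart in Lpl (51.3 CPM). In the 16 h study fasted mouse 11 stood apart in Pnpla2 (22.7 CPM), HFD mouse 14 in Angptl4 (3.83 CPM) and chow mouse 6 in Lipe (22.2 CPM).

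The fasting effect differed between the studies, by the edgeR contrast of 4 groups, in 4 of the 10 genes and in 5 of the 15 list genes picked by the naming rule. Over all 30664 genes tested 1.25% were called. The naming rule picked the list genes by their change at 24 h, and the 10 genes were chosen with earlier results in view. These counts are therefore no independent evidence. The difference, 24 h minus 16 h on the log2 scale, was 2.52 for Plin4, 1.62 for Pnpla2, 1.47 for Angptl4 and 0.55 for Pnpla7. For the list genes it was 3.39 for Cdkn1a, 1.82 for Sgk1, 1.501 for Sult1a1, 1.42 for Pdk4 and 0.89 for Ucp2 (adjusted p = 0.0478). Duration cannot be told apart from housing, run, choice of hemisphere, the clock hour at which the fast began and the region that differed.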

How the results depend on the processing

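At 24 h Plin4, Pnpla2, Angptl4 and Pnpla7 were called with the same sign in all 27 alternatives run, and in the 4 alternatives of the difference between the studies. Plin2 was called in 7 of 27 and Lipe in 6 of 27. The share of genes called at 24 h, 11.3%, ran from 5.99% without the filter on low counts, where more genes were tested, to 13.6% with equal weight per column, and from 9.18% to 12.9% with single mice left out (4 to 6 of the 10 genes). The diets shared no replicate numbers, so no fit with a replicate block was made. The round of cages, shared by the diets at 16 h, was fitted as a term and changed no call of the 10 genes, with 0.286% of all genes called for fasting against HFD. At 16 h DESeq2 called 0.0666% for fasting against chow, 0.0124% for HFD against chow and 1.18% for fasting against HFD, where edgeR called 0%, 0% and 0.222%. In the last of these DESeq2 called 1 of the 10 genes (Plin4) where edgeR called 0. That comparison had 0.792% with equal weight per column, 0% with cage sums, and 0% to 0.347% with single mice left out, with 0% without mouse 11 or mouse 12. The difference between the studies had 1.86% with DESeq2, beside 1.25%, and 1.59% without mice 1423 and 1454, an alternative chosen after seeing the data. The causes were not tested.

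Directions changed only in values that were not called, among the 10 genes and the alternatives run. At 24 h Lpl was -0.10 with equal weight per column, and -0.10 to 0.61 with single mice left out. Mgll at 24 h was -0.14 with equal weight, -0.015 without TMM, -0.00057 with the clock hour, -0.020 without mice 1423 and 1454, -0.049 without mouse 1455 as well, and -0.038 to 0.10 with single mice left out. For fasting against chow at 16 h Plin3 was -0.016 with cage sums and -0.016 without TMM, and Plin5 -0.0085 without TMM. With single mice left out Plin3 ran from -0.026 to 0.045 and Plin5 from -0.049 to 0.10. For HFD against chow Plin4 was 0.031 and Pnpla7 0.020 with equal weight, and with single mice left out Plin4 ran from -0.096 to 0.041, Pnpla7 from -0.050 to 0.043 and Lipe from -0.066 to 0.0030. For fasting against HFD Mgll was 0.010 with cage sums, and with single mice left out Mgll ran from -0.095 to 0.070 and Angptl4 from -0.013 to 0.19. The difference between the studies for Lpl was -0.22 with equal weight. Depth limits Angptl4 and Plin5 most, with as few as 97 counts in a mouse for Angptl4.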
